A study of Rattus norvegicus with 20 samples.

Results

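The comparison described here is stretch against no stretch in cells treated with an inhibitor of the kinase PERK. It was chosen by its labels alone and takes 10 of the 20 libraries of the series: 5 stretched (S_PI) and 5 unstretched (NS_PI), matched by animal number. By the labels, the cells were primary alveolar type II epithelial cells of Sprague-Dawley rats. They were cultured for 4 days on fibronectin-coated silastic membranes, where they flatten into monolayers resembling type I cells. S_PI monolayers received 1 µM GSK2606414, the PERK inhibitor, for 18 h and then biaxial cyclic stretch for 6 h at 15 cycles per min with a 25% change in surface area. NS_PI monolayers received 1 µM GSK2606414 for 24 h without stretch. No total treatment time was recorded for S_PI, so inhibitor during the 6 h of stretch is not documented here. The remaining 10 libraries, used only where stated, were stretched (S) and unstretched (NS) monolayers with 0.01% DMSO in place of the inhibitor. The labels give no DMSO content for S_PI and NS_PI. Each library held RNA pooled from 4 monolayers of 1 animal, and 3′ ends of polyadenylated RNA were sequenced (QuantSeq, forward). The monolayers lay on a flat membrane outside the lung, and markers of other lung cells were also counted, as given below. Nothing in the files measures PERK activity, so the degree of inhibition in these cells was not checked here.

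PERK, encoded by Eif2ak3, is a transmembrane kinase of the endoplasmic reticulum. When unfolded proteins accumulate it phosphorylates the translation factor eIF2 on its alpha subunit, which slows protein synthesis in general while raising translation of the transcription factor ATF4. ATF4 then drives genes for amino acid uptake and synthesis, tRNA charging, CHOP (Ddit3) and a phosphatase subunit that reverses the phosphorylation, a programme called the integrated stress response. The kinases GCN2 (Eif2ak4), PKR (Eif2ak2) and HRI (Eif2ak1) phosphorylate the same site. Cyclic stretch of alveolar epithelium is a culture model of the strain that mechanical ventilation puts on the lung. The mRNA of a stress response gene can change through any of these routes, and phosphorylated eIF2 was not measured.

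Promoter sequences of some members show the short motifs that the results below return to. They come from RefSeq promoter records of build GRCr8, another build than the rn6 of the counts, so no coordinates are given, and each is written 5′ to 3′ in the direction of its gene. The first group holds the CARE motif, the C/EBP-ATF element bound by ATF4, in the letters TGATGNAA on either strand, shown in capitals, in stress response genes that rose with stretch.
Chac1: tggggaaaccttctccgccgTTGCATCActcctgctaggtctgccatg
Herpud1: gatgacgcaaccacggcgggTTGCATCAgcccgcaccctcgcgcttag
Trib3: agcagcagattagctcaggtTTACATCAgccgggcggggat
Iars: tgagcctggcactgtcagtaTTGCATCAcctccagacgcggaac
The second group holds the AP-1 motif TGANTCA, the element bound by Fos and Jun proteins, in capitals, in protease system genes that rose with stretch.
Mmp13: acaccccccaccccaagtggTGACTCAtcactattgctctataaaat
Mmp10: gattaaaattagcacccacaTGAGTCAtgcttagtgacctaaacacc
Mmp3: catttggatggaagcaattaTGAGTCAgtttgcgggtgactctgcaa
Plaur: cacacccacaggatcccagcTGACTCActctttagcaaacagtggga
Serpinb2: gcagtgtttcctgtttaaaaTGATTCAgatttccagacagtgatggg
Tnfaip6: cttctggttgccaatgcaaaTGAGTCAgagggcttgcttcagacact
The CARE motifs start 167 bases before the RefSeq start in Chac1, 184 in Herpud1, 21 in Trib3 and 24 in Iars. The AP-1 motifs of Mmp13, Mmp10, Mmp3 and Plaur start 66, 61, 71 and 83 bases before the start, and those of Serpinb2 and Tnfaip6 189 and 192 bases before it.

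Counts assigned to genes ranged from 1348640 to 1813947 in S_PI and from 1320491 to 2320544 in NS_PI libraries. Depth of S_PI minus NS_PI averaged -289772 ± 376392 counts (SD over 5 pairs), higher in 1 of 5 animals (two-sided exact paired permutation p = 0.188, where 0.0625 is the smallest that 5 pairs allow). Levels are given in CPM, counts scaled to a common total of tested-gene counts with TMM factors, the usual unit of count tables, and a count of 3, taken as the floor of detection, equals 1.25 to 2.29 CPM in these libraries. Every S_PI library correlated best with the NS_PI library of its own animal, so the animal was a block in the fit. The first principal component of the 10 libraries held 32.1% of their variance and was lower in S_PI in 5 of 5 animals. Type I markers were present in all libraries, and their summed level was 1689 to 8188 CPM in S_PI and 2556 to 9563 CPM in NS_PI. Type II markers were also present, at 1996 to 11359 CPM in S_PI and 3187 to 9734 CPM in NS_PI. This sum included Lyz2, which averaged 5256 CPM in S_PI and 4458 CPM in NS_PI and was counted in the leukocyte sum as well. Ctsh averaged 842 and 1289 CPM, and the surfactant gene Sftpc 9.22 and 11.9 CPM, in S_PI and NS_PI. Markers of leukocytes summed to 3355 to 15177 CPM in S_PI and 1989 to 11311 CPM in NS_PI, largely through Lyz2, which type II cells also express, and markers of fibroblasts and smooth muscle to 17492 to 28490 CPM in S_PI and 14837 to 22783 CPM in NS_PI. In these bulk samples, fewer cells of a type and less RNA per cell cannot be told apart.

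In cells treated with the inhibitor, stretch raised early transcription factors, inflammatory mediators, matrix proteases and stress response genes. It lowered genes of cholesterol synthesis, epithelial junctions and type I cells. Of 8320 genes tested with edgeR's quasi-likelihood test, 2534 (30.5%) had a Benjamini-Hochberg adjusted p below 0.05, 1263 higher (15.2%) and 1271 lower (15.3%) in S_PI. These percentages are the background for every list below. The lists share 34 genes, Slc7a11, Hmox1, Vegfa, Cldn18 and Clic5 among them, so their counts are not independent. The split depended on scaling: with library size alone, 957 were higher and 1677 lower which moved the median of all log2 changes to -0.12, and with upper-quartile factors 1030 were higher and 1612 lower. Across all 14 alternatives, 979 genes were called in every one, 539 higher and 440 lower. At the median standard error of 0.20, the 95% interval of a log2 change reached about 0.44 to each side.

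Among genes that averaged 10 CPM or more the largest rise belonged to Fosl1 (ENSRNOG00000020552), which encodes the AP-1 subunit FRA-1. Fosl1 measured 28.1, 38.4, 33.2, 13.7 and 29.3 CPM in the S_PI libraries of animals 1 to 5, against 1.40, 2.50, 0.527, 2.79 and 2.97 CPM in their NS_PI libraries. All S_PI libraries lay above all NS_PI libraries, as they did for 7.16% of all genes tested (and below them for 6.60%). The NS_PI values lie near the floor of detection. The log2 fold change was 3.77 ± 0.37 (SE, n = 5 animals, edgeR adjusted p = 5.26e-07). Csrnp1 (ENSRNOG00000033433), a nuclear protein with regions rich in serine and cysteine, measured 457, 311, 359, 175 and 157 CPM in S_PI, against 43.3, 34.2, 35.3, 25.5 and 29 CPM in NS_PI. Its 5 pairs differed by a similar amount, and it rose 8.32-fold (log2 3.06 ± 0.18, edgeR adjusted p = 9.76e-10). The transcription factor Klf4 averaged 63 ± 43.8 CPM in S_PI and 8.28 ± 3.72 CPM in NS_PI (SD, n = 5 each), a rise of 7.00-fold with groups that did not overlap. Fosb, another AP-1 subunit, had 3, 15, 20, 11 and 14 counts in S_PI libraries, against 2, 3, 0, 0 and 0 counts in NS_PI libraries. No NS_PI library held more than 3 counts of Fosb, so no fold is given.

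Of 35 tested members of a list of immediate-early factors and feedback regulators of MAP kinase signalling, genes that respond within minutes to hours of growth signals, 16 rose and 3 fell, with a median log2 change of 0.68 against -0.02 over all genes tested. The orphan nuclear receptors rose together: log2 fold changes were 1.55 for Nr4a1, 2.35 for Nr4a2 and 2.56 for Nr4a3. Among the dual-specificity phosphatases, which switch MAP kinases off, Dusp2 (1.97), Dusp5 (1.65) and Dusp10 (1.25) rose, while Dusp1 (log2 0.53, adjusted p = 0.385) and Dusp6 (0.58, adjusted p = 0.12) did not pass. Spry2, a brake on receptor tyrosine kinase signalling, rose by 2.36 on the log2 scale. Fos rose by 1.59, whereas Jun (0.19), Junb (0.04) and Jund (0.23) did not pass. The 3 falls were Gadd45g (log2 -1.89), Zfp36l1 (-0.94), an mRNA decay factor, and Btg2 (-0.48), an inhibitor of proliferation. Leaving out any 1 animal left 15 to 19 members higher.

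**Figure D1:**
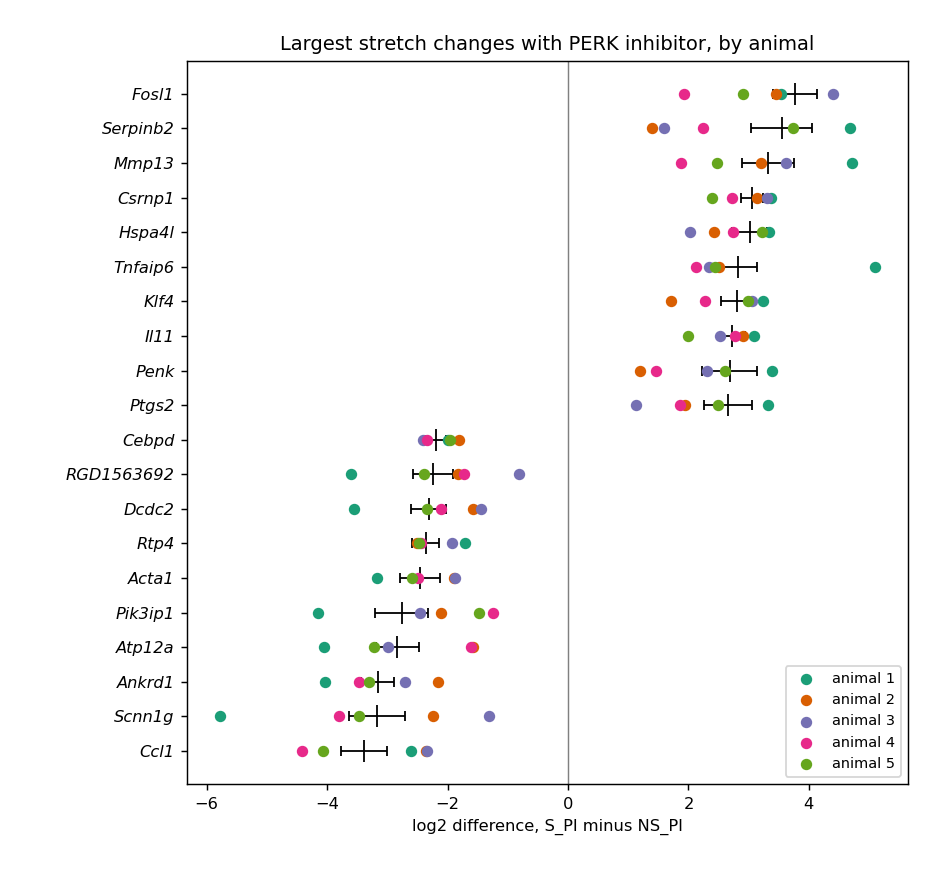
The 10 largest rises and 10 largest falls among genes that averaged 10 CPM or more and moved the same way in 5 of 5 animals. The horizontal axis gives the log2 difference S_PI minus NS_PI, each coloured point is 1 animal, the black tick is the fitted log2 fold change and the bar its standard error to each side. Every point lies on the side of its gene's fitted change, and animal 1 lies farthest out for Tnfaip6 and Scnn1g.

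Growth factor and cytokine ligands rose. Epiregulin (Ereg) measured 15.5, 112, 85.7, 24.4 and 24.5 CPM in S_PI, against 21.9, 5.84, 8.44, 7.90 and 7.43 CPM in NS_PI, and amphiregulin (Areg) 117, 885, 569, 149 and 168 CPM in S_PI, against 134, 148, 127, 81.7 and 68.3 CPM in NS_PI. Both are ligands of the EGF receptor, and both were higher in 4 of 5 animals, with animal 1 the exception. The third ligand, Hbegf, was higher in 5 of 5 animals (log2 1.49 ± 0.29, edgeR adjusted p = 7.21e-04). Of 10 tested members of the EGF receptor and growth signal list 6 rose and none fell, with a median log2 change of 0.96. The others were Vegfa, the vascular endothelial growth factor (1.15), Met, the hepatocyte growth factor receptor (1.07), and neuregulin Nrg1 (0.86). The ligand Tgfa (log2 -0.17, adjusted p = 0.566) and the sheddase Adam17 (-0.10, adjusted p = 0.551) did not pass.

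Interleukin 11 (Il11), a cytokine that signals through gp130, measured 79.1, 113, 87.5, 379 and 234 CPM in S_PI, against 8.38, 14.2, 14.2, 54.3 and 57.9 CPM in NS_PI. The groups did not overlap although animals 4 and 5 had higher levels than the others in both groups, and Il11 rose 6.64-fold. Il6, Cntf and Clcf1, of the same cytokine family, rose by log2 1.71, 1.82 and 1.45. The signal transducer Il6st (0.32, adjusted p = 0.0654) and Stat3 (-0.37, adjusted p = 0.067) did not pass, and the receptor chain Il11ra1 fell (log2 -0.84). Of 11 tested members of the gp130 list 4 rose and 2 fell, median log2 0.40.

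Inflammatory mediators moved in both directions. Of 32 tested members of the NF-kB list 14 rose and 5 fell, with a median log2 change of 0.44. The neutrophil chemokines Cxcl2 and Cxcl1 rose by log2 2.38 and 1.28, Ccl3 by 2.29, and interleukin 1 beta (Il1b) by 1.82. Ptgs2, the inducible cyclooxygenase, measured 56.2, 7.93, 9.33, 13 and 17.7 CPM in S_PI, against 4.65, 1.25, 3.69, 2.79 and 2.23 CPM in NS_PI. Its S_PI level was highest in animal 1, and it rose in 5 of 5 animals (log2 2.65 ± 0.40, edgeR adjusted p = 6.89e-05). The inhibitors Nfkbia (0.87) and Nfkbiz (0.81), a regulator of NF-kB in the nucleus, rose as well. Against these, Ccl1 (ENSRNOG00000021851), a chemokine for lymphocytes and monocytes, measured 2.29, 7.32, 5.83, 2.29 and 4.77 CPM in S_PI and 19.5, 42.1, 34.3, 71.1 and 97.3 CPM in NS_PI. Ccl1 thus fell in every animal and had the largest fall of all named genes (log2 -3.38 ± 0.38, edgeR adjusted p = 3.30e-06). Its S_PI libraries held 4, 12, 10, 3 and 7 counts, near the floor of detection, which limits the size of the fall. Csf1, the macrophage growth factor, fell (log2 -1.68), as did Ccl20 (-1.43), and Bcl3 and Irf1 fell too (-1.07 and -1.15).

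Genes of the interferon response and antigen presentation went down where they changed. Of 25 tested members 8 fell and none rose, and the median log2 change was -0.46. Irf1, an interferon regulatory factor, averaged 66.7 ± 24.1 CPM in S_PI and 142 ± 35.6 CPM in NS_PI (SD, n = 5 each). The signal transducer Stat2 fell (log2 -0.54), as did the RNA sensor Ddx58 (-0.93) and the immunoproteasome subunit Psmb9 (-0.89). Ddx58 was not called without animal 2. Without animal 2 it was 4 members that fell, without animal 5 it was 5, and with no replicate block 2.

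Proteases of the matrix and the plasminogen system carried several of the largest rises. Mmp13 (ENSRNOG00000008478), a collagenase, measured 64.7, 59.2, 57.7, 38.9 and 46.4 CPM in S_PI, against 1.40, 5.42, 3.69, 9.75 and 7.43 CPM in NS_PI. The S_PI libraries were close to each other and lay apart from all NS_PI libraries, with a log2 fold change of 3.32 ± 0.43 (edgeR adjusted p = 1.24e-05). Serpinb2 (ENSRNOG00000002460), plasminogen activator inhibitor 2, measured 207, 7.32, 13.4, 13 and 13.6 CPM in S_PI, against 6.98, 2.08, 3.69, 1.86 and 0 CPM in NS_PI. Animal 1 had a S_PI level far above the others, and the other 4 animals also rose. Mmp10, a stromelysin, had 5, 10, 14, 6 and 9 counts in S_PI libraries, against 2, 0, 1, 2 and 0 counts in NS_PI libraries, where no library held more than 3 counts. Tnfaip6, a hyaluronan-binding protein, rose 7.09-fold, and the hyaluronan synthases Has1 and Has2 rose by log2 2.27 and 2.31.

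Over the 26 tested members of that list 12 rose and 3 fell, median log2 0.59. Mmp3 (1.44), the urokinase receptor Plaur (1.54), the hyaluronan receptor Cd44 (0.96), tissue plasminogen activator Plat (0.79), Mmp2 (0.70) and the inhibitor Timp1 (0.57) completed the rises. Mmp11 (-1.97), Mmp15 (-1.54) and Timp3 (-0.86) fell. The AP-1 motif lay within 250 bases before the start of 8 of the 20 members with a RefSeq promoter, 6 of them genes that rose (the sequences shown above), against 6.36% of 27457 promoters and 4.37% of the 6835 promoters of tested genes. In the immediate-early list it lay in 1 of 28 promoters, that of Zfp36l1, which fell. The CRE motif TGACGTCA lay in 5 of these 28, among them Btg2, which fell, and Maff, which rose, against 1.70% of all promoters and 3.10% of those of tested genes. The CArG box CCWWWWWWGG, where W is A or T, lay in 4 of the 28, among them Dusp5 and Klf6, which rose, against 1.50% and 1.20%.

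Genes of the integrated stress response rose with stretch in cells treated with the PERK inhibitor. Of 36 listed targets and regulators 30 were tested, and 22 of these rose and none fell, with a median log2 change of 0.89 against -0.02 over all genes tested. Leaving out any 1 animal left 15 to 23 higher, and no alternative called a member lower.

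Atf4 (ENSRNOG00000017801) measured 2221, 3714, 3309.7, 3058 and 2424 CPM in S_PI, against 977, 1088, 1122, 1423 and 1416 CPM in NS_PI. All 5 S_PI libraries lay above all NS_PI libraries, and Atf4 rose 2.39-fold (log2 1.26 ± 0.15, edgeR adjusted p = 4.38e-06). Ddit3, which encodes the transcription factor CHOP, measured 89.4, 138, 125, 201 and 132 CPM in S_PI, against 49.3, 61.3, 69.1, 89.2 and 86.9 CPM in NS_PI. The groups met without overlap, and Ddit3 rose 1.91-fold. Atf3, a transcription factor induced by ATF4, averaged 81.3 ± 31.8 CPM in S_PI and 30.8 ± 4.32 CPM in NS_PI (SD, n = 5 each). Ppp1r15a (ENSRNOG00000020938), the GADD34 subunit that returns phosphorylated eIF2 to its resting form, had the largest change of the list. It measured 193, 445, 440.3, 185 and 144 CPM in S_PI, against 44.2, 44.6, 54.3, 46.4 and 39.4 CPM in NS_PI, and rose 5.65-fold. The constitutive partner Ppp1r15b rose by 0.68 on the log2 scale.

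All amino acid transporters of the list that were tested rose. Slc38a2, a neutral amino acid transporter, measured 1124, 1719.8, 1744, 1261 and 1048 CPM in S_PI, against 425, 428, 334, 347 and 292 CPM in NS_PI. The groups were far apart, a 3.72-fold rise (log2 1.90 ± 0.14, edgeR adjusted p = 1.64e-08). Slc7a11, the cystine importer, averaged 126 ± 38.4 CPM in S_PI and 46 ± 14.3 CPM in NS_PI (SD, n = 5 each). The arginine transporter Slc7a1 rose by log2 1.46, the leucine transporter Slc7a5 by 0.99 and the heavy chain of Slc7a5, Slc3a2, by 1.22. The glycine transporter Slc6a9 rose by 0.58 (edgeR adjusted p = 0.0436). Chac1, which degrades glutathione, measured 42.4, 113, 89.2, 80.8 and 86.6 CPM in S_PI, against 25.1, 11.7, 21.1, 32.5 and 33.4 CPM in NS_PI, without overlap.

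Enzymes of serine and one-carbon synthesis rose as well: Psat1 by 1.03, Phgdh by 0.74, Shmt2 by 1.17 and Mthfd2 by 0.83 on the log2 scale, with Psph at 0.59 (adjusted p = 0.0671). Asparagine synthetase Asns measured 69.3, 34.8, 50.2, 67.8 and 42.3 CPM in S_PI, against 30.2, 36.7, 36.9, 39.9 and 37.1 CPM in NS_PI. The groups overlapped and the change missed the threshold (log2 0.53 ± 0.24, edgeR adjusted p = 0.095). Without animal 2, Asns passed (log2 0.66, adjusted p = 0.0371). Trib3, a pseudokinase that feeds back on the programme, rose 1.62-fold in 5 of 5 animals, with adjusted p = 0.0151, and lost its call without animal 4 (0.077). Sesn2, a leucine sensor, was higher in 4 of 5 animals but did not pass (log2 0.46, adjusted p = 0.0774). Without animal 1 it passed (log2 0.72, adjusted p = 0.0032). Aminoacyl-tRNA synthetases, which charge tRNAs with amino acids, held 8 rises and no fall among 20 tested, median log2 0.33, with Nars (0.88), Cars (0.86), Vars (0.75) and Yars (0.56) the largest. With library size alone or with no replicate block 4 of these 20 passed, and without animal 5 it was 5, with Yars not called without animal 1 or 5.

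The CARE motif lay within 250 bases before the start of 5 of 26 stress response genes with a promoter record, 4 of them called (Slc7a1 besides the 3 shown above), and of 5 of 17 synthetase genes, of which Iars and Nars were called. It was found in 3.27% of all 27457 promoters and 1.62% of those of tested genes. In both lists most genes that rose, Atf3, Ddit3 and Slc7a11 among them, had no such letters in this window or no promoter record.

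**Figure D2:**
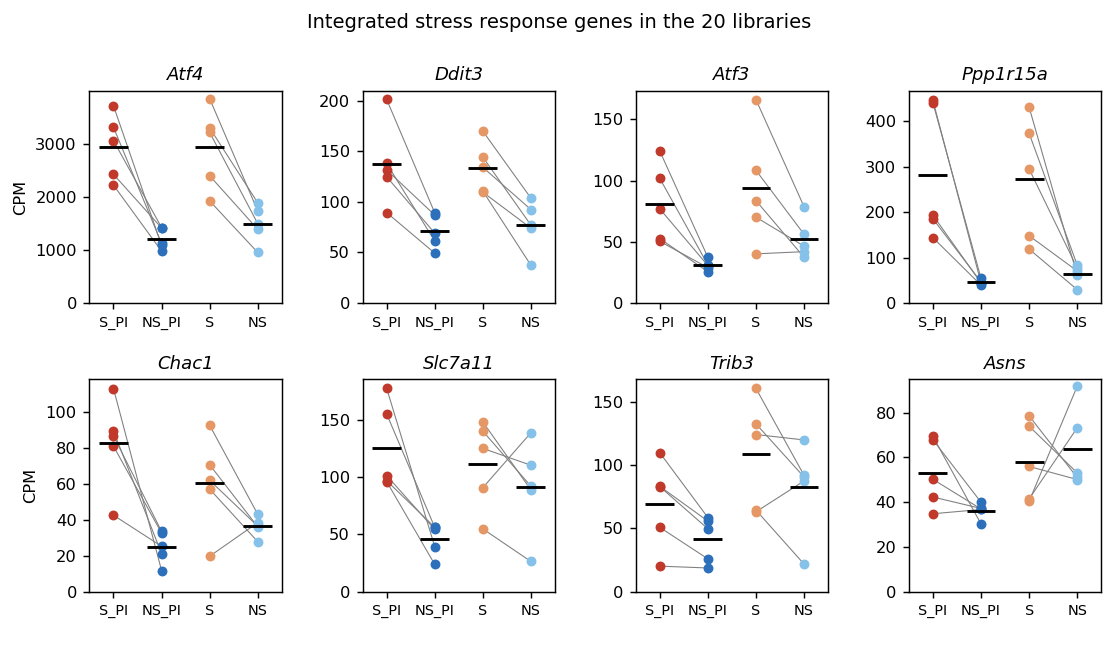
Levels of 8 integrated stress response genes in CPM (vertical axes, linear from 0) in the 5 libraries of each group. Points are libraries, black bars group means, and grey lines join the libraries of 1 animal. All S_PI libraries lie above all NS_PI libraries for Atf4, Ddit3, Atf3, Ppp1r15a, Chac1 and Slc7a11, whereas Trib3 and Asns overlap.

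Stretch in cells with DMSO gave values that can be set beside these, from libraries that neither S_PI nor NS_PI shares but from the same 5 animals and the same fit. Of the 30 stress response genes 12 rose and 1 fell in S against NS, median log2 0.46. The change with inhibitor minus the change without it was positive in 26 of the 30 and in 4185 of all 8320 genes. Atf4 rose by log2 0.97 in S against NS (adjusted p = 1.08e-04), and the difference between the 2 stretch effects was 0.29 (95% interval -0.16 to 0.73, unadjusted p = 0.176). For Slc7a11 the S over NS change was 0.33 (adjusted p = 0.297), and the difference was 1.16 (0.46 to 1.86, unadjusted p = 0.00169). Chac1 differed by 1.03 (0.14 to 1.92, unadjusted p = 0.0191) and Asns by 0.70 (-0.03 to 1.42, unadjusted p = 0.0483), where the interval includes 0 because it uses fewer degrees of freedom than the test. In 9 of the 30 members the unadjusted interaction p was below 0.05, all with a positive difference (Atf3, Chac1, Asns, Slc7a11, Slc7a1, Shmt2, Cth, Vegfa and Xpot), against 4.15% of all genes. After adjustment over all genes none passed, the smallest adjusted p being 0.984.

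The levels in unstretched cells enter this difference. The NS_PI mean was below the NS mean in 27 of the 30 members, against 4291 of 8320 genes tested. Slc7a11 averaged 46 ± 14.3 CPM in NS_PI and 91.4 ± 41.4 CPM in NS, but 126 ± 38.4 CPM in S_PI and 112 ± 38.8 CPM in S (SD, n = 5 each). Asns averaged 36.2 ± 3.57 CPM in NS_PI and 63.8 ± 18.3 CPM in NS, and 52.9 ± 15.4 CPM in S_PI and 58 ± 17.8 CPM in S. The S_PI mean lay below the S mean in 20 of the 30. These means are given as a description, with no test of inhibitor against DMSO.

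Genes of the sensors of the unfolded protein response rose in part, and their chaperone targets were called no more often than all genes tested. Eif2ak3, the gene of PERK itself, averaged 228 ± 79.2 CPM in S_PI and 122 ± 35.4 CPM in NS_PI (SD, n = 5 each) and rose 1.81-fold (edgeR adjusted p = 0.00565). Atf6, another sensor of the endoplasmic reticulum, rose by 0.74 ± 0.21 on the log2 scale (adjusted p = 0.0115), and was not called without animal 4. GCN2, encoded by Eif2ak4, fell (log2 -0.91), and PKR (-0.11) and HRI (-0.25) did not pass. Ripk1, a kinase reported as another target of GSK2606414, rose by 0.75. Of 10 tested sensors, kinases and reported targets 5 rose and 1 fell.

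The chaperone BiP (Hspa5), a main target of ATF6, measured 9919.8, 7179, 6894, 9699 and 10912 CPM in S_PI, against 8148, 13876, 10184, 9202 and 10678 CPM in NS_PI. The groups overlapped and the log2 change was -0.22 ± 0.17 (adjusted p = 0.356). Xbp1, whose spliced form drives chaperone and degradation genes, stood at log2 0.11 (adjusted p = 0.739), and 3′ end counts cannot show its splicing. Over 27 tested ATF6 and XBP1 targets 4 rose and 3 fell (25.9% called, against 30.5% of all genes tested), with a median log2 of -0.05. Herpud1 (1.14) and Dnajb9 (0.90), Sec24d (0.58) and Syvn1 (0.50) rose, and Derl3 (-1.80), Edem2 (-0.92) and Sdf2l1 (-0.79) fell. Herpud1 is also in the stress response list. The calreticulin and disulfide isomerase genes Calr (-0.05), Pdia4 (-0.27) and Pdia6 (-0.16) did not pass.

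**Figure D3:**
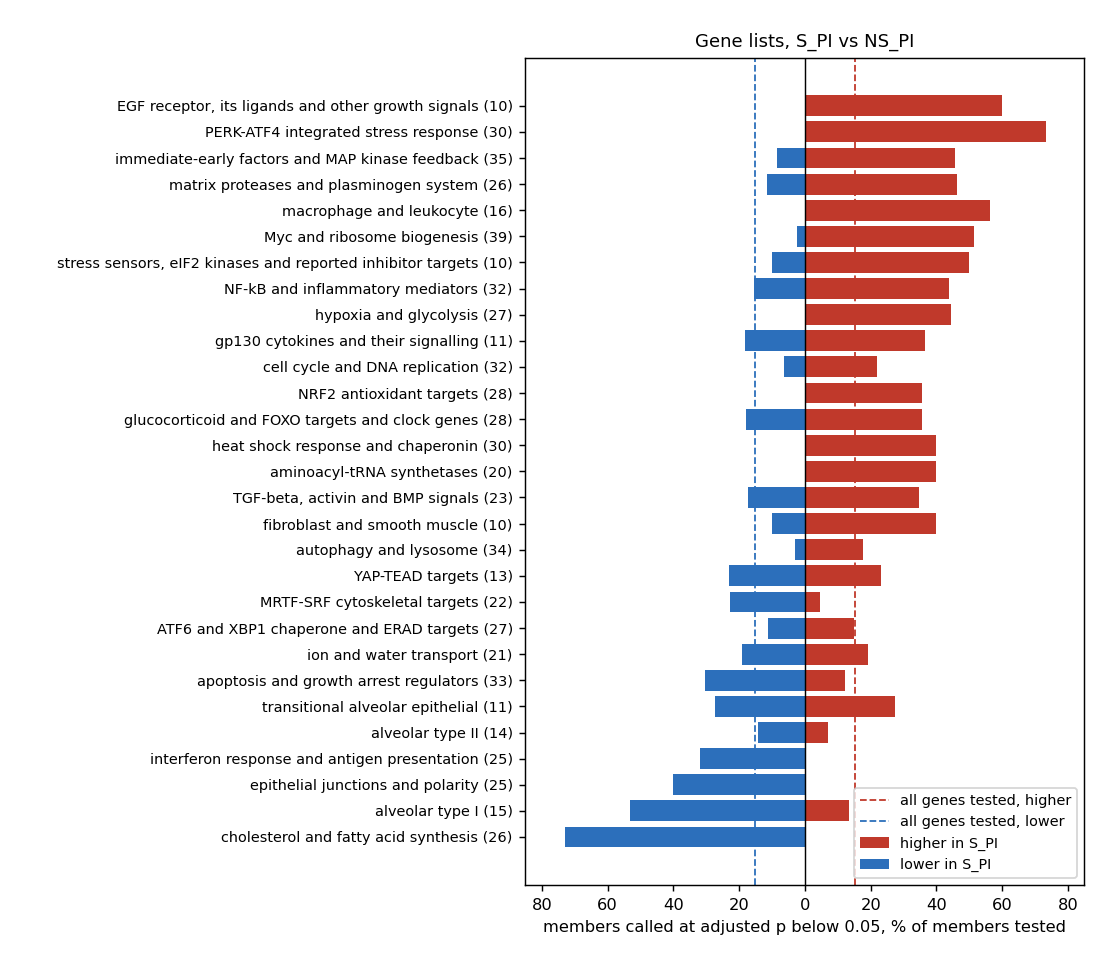
Percentage of tested members called higher (red, to the right) and lower (blue, to the left) in S_PI against NS_PI, for the 29 lists with at least 10 members tested, ordered by median log2 change. Numbers in parentheses are members tested, and dashed lines mark 15.2% higher and 15.3% lower over all genes. Stress response genes have the largest share of rises and cholesterol synthesis genes the largest share of falls.

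Cytosolic chaperones of the heat shock response rose in part. Hspa4l (ENSRNOG00000010819), a member of the HSP110 family, measured 95.1, 25, 22.7, 34.3 and 23.2 CPM in S_PI, against 8.38, 3.75, 4.75, 4.18 and 1.49 CPM in NS_PI. The NS_PI libraries held 18, 9, 9, 9 and 2 counts. Hspa4l rose 8.08-fold without overlap. It was among the 10 genes with the smallest interaction p (difference of stretch effects 1.51, 95% interval 0.61 to 2.41, unadjusted p = 0.00141, adjusted p = 0.984). Of 30 tested members 12 rose and none fell (1 fell with library size alone and without animal 1), median log2 0.33. Hspa1a and Hspa1b, the inducible HSP70 genes, rose by log2 1.04 and 1.88, but as near-identical copies their reads cannot be assigned with certainty. Dnaja1, Hsf2 and Bag3, a cochaperone, rose by 0.63, 0.71 and 0.51. The subunits of the chaperonin TRiC did not pass apart from Cct6a (0.33). The heat shock motif GAANNTTC was present in 9 of 26 promoters, 6 of them genes that rose, against 7.02% of all promoters and 4.67% of those of tested genes. Without animal 3 it was 6 members that rose, and without any other animal 8 to 13.

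Oxidative stress and hypoxia genes rose where they changed. Of 28 NRF2 targets 10 rose and none fell (2 fell with library size alone and 1 without animal 4), median log2 0.37, and without animal 5 it was 6 that rose. Gclc, the catalytic subunit of glutathione synthesis, measured 136, 90.3, 103, 120.4 and 136 CPM in S_PI, against 66.5, 58.8, 54.8, 43.7 and 28.2 CPM in NS_PI, without overlap. Hmox1, heme oxygenase 1, rose 1.98-fold, and Txnrd1 (0.84), Srxn1 (0.71) and the NRF2 partner Mafg (0.86) rose, while Nqo1 (0.52, adjusted p = 0.0742) and Gclm (0.20, adjusted p = 0.444) did not pass. Of 27 hypoxia and glycolysis genes 12 rose and none fell, median log2 0.44. They included Ankrd37 (1.39), the oxygen sensor Egln3 (1.14), Ndrg1 (1.18), pyruvate kinase Pkm (1.06), the glucose transporter Slc2a1 (0.60) and the lactate transporter Slc16a3 (0.61). Ldha (0.32) and Gapdh (0.36) did not pass.

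Myc, which drives ribosome production, measured 55.6, 263, 228, 72.4 and 59.99 CPM in S_PI, against 38.6, 30.8, 41.1, 39.9 and 27.5 CPM in NS_PI. It was highest in animals 2 and 3 and rose 3.11-fold without overlap, whereas its relative Mycn fell (log2 -1.16, adjusted p = 0.0265), a call that was lost without animal 1, 2, 3 or 4 and with no replicate block. Of 39 tested genes of Myc and ribosome biogenesis 20 rose and Mycn alone fell (3 genes with library size alone, none without animal 1, 2 or 4, and 2 without animal 5), median log2 0.51. They included the nucleolar proteins Gnl3 (1.46), Nop56 (1.10), Nop58 (1.02) and Ncl (0.74), the helicase Ddx21 (1.04) and the RNA polymerase I subunit Polr1b (0.76). Among 32 cell cycle genes 7 rose and 2 fell (1 without animal 2, 3, 4 or 5). In this list 28.1% were called, against 30.5% of all genes tested. Mki67 (1.29), Pcna (1.01) and Mcm7 (0.76, not called without animal 2, 3 or 5) rose, and the inhibitor Cdkn2b fell (log2 -1.37), to 417 ± 158 CPM in S_PI against 1078 ± 384 CPM in NS_PI (SD, n = 5 each).

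Cholesterol synthesis genes fell together. The list of cholesterol and fatty acid synthesis had 26 tested members, of which 19 fell and none rose, with a median log2 change of -0.81. Hmgcs1, an early enzyme of the pathway, measured 143, 149, 136, 162 and 198 CPM in S_PI, against 495, 504, 372, 442 and 448 CPM in NS_PI. Fdft1, squalene synthase, measured 31.5, 34.8, 30.3, 36.6 and 41.6 CPM in S_PI, against 104, 130.5, 96.5, 106 and 102 CPM in NS_PI. For both genes every S_PI library was far below every NS_PI library, with levels 2.87-fold and 3.09-fold lower in S_PI (log2 -1.52 ± 0.14 and -1.63 ± 0.17, edgeR adjusted p = 2.99e-07 and 9.40e-07). The isomerase Idi1 (log2 -1.11), squalene epoxidase Sqle (-1.21) and the last enzyme, Dhcr7 (-1.31), fell. The regulator Srebf2 fell (log2 -0.62), and its paralog Srebf1 (0.12) and Insig1 (-0.25) did not pass. The members outside sterol synthesis mostly did not pass: fatty acid synthase Fasn stood at -0.02, Me1 at 0.06 and Fads1 at -0.28, while Scd2 (-0.52) and Acly (-0.36) fell. With no replicate block 13 members fell, and in the other alternatives 16 to 19. None of the 20 members with a promoter record held the sterol motif letters TCACNCCAC in the 250 bases before the start. These letters lay in 0.976% of all promoters and 1.04% of those of tested genes. At so low a share, 20 promoters are too few to tell the list from the background.

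**Figure D4:**
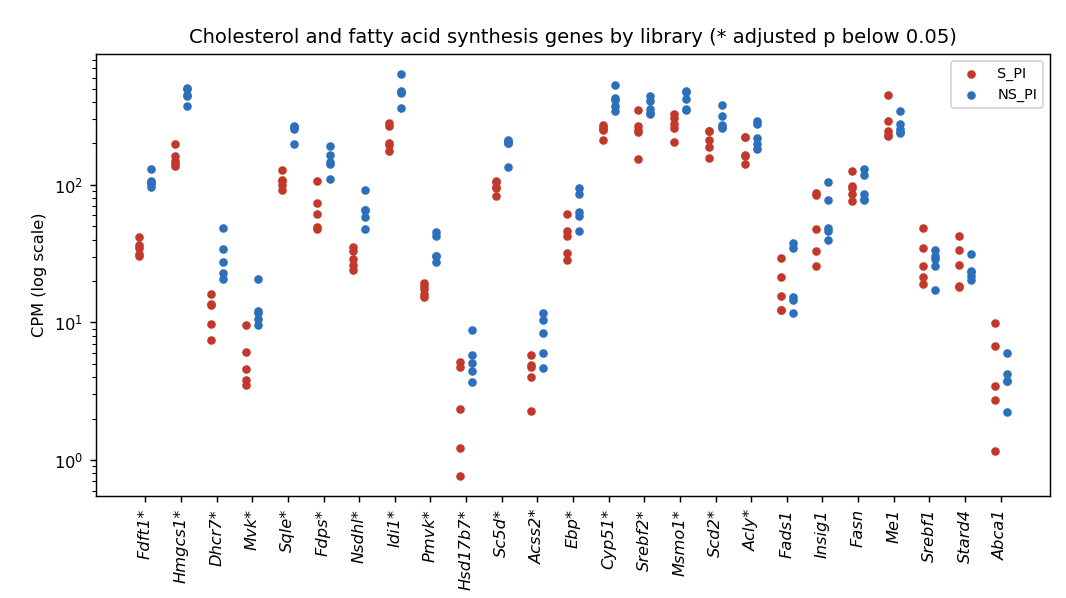
Levels of 25 of the 26 tested cholesterol and fatty acid synthesis genes in CPM (vertical axis, log scale), ordered from the largest fall, with S_PI libraries in red left of NS_PI libraries in blue. Asterisks mark adjusted p below 0.05. For Fdft1, Hmgcs1 and Sqle the 5 red points lie below the 5 blue points.

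Type I cell genes and epithelial junction genes fell. Of 15 tested type I markers 8 fell and 2 rose, median log2 -0.57. Cldn18, a tight junction claudin of the alveolus, measured 76.2, 457, 300.4, 108 and 108 CPM in S_PI, against 691, 668, 457, 257 and 267 CPM in NS_PI. Clic5, a chloride channel family protein, measured 56.7, 559, 362, 10.7 and 21.8 CPM in S_PI, against 846, 852, 645, 46.9 and 92.1 CPM in NS_PI. Both were lower in 5 of 5 animals although animals differed widely, so the groups overlapped. Ager (-1.11), Emp2 (-0.99), Akap5 (-1.89) and Pdpn (-0.47) fell, and Cav1 (0.79) and Vegfa (1.15) rose. Hopx (-0.44, adjusted p = 0.0939) did not pass. Without animal 5 it was 4 type I markers that fell, and with no replicate block none fell. Without animal 1, 4 or 5, or with no replicate block, 1 type I marker rose. Among 14 type II markers (21.4% called, against 30.5% of all genes tested) Cebpa rose, and Ctsh and Dram1 fell. Cebpa was not called without animal 4, nor Ctsh without animal 4 or 5. The surfactant genes Sftpb, Sftpd, Sftpc and Sftpa1 did not pass (log2 -0.65, -0.52, -0.18 and -0.10).

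Of 25 junction and polarity genes 10 fell and none rose, median log2 -0.52. Crb3, a polarity protein, measured 22.3, 117, 83.4, 72.4 and 79.8 CPM in S_PI, against 214, 154, 201, 173 and 190.1 CPM in NS_PI, without overlap. Tjp3 (-1.71), the desmosomal plakophilin Pkp2 (-0.96), the adhesion molecule Epcam (-0.87) and the gap junction proteins Gjb2 (-0.85) and Gja1 (-0.71) fell. E-cadherin, Cdh1, stood at -0.89 (adjusted p = 0.0762), and Tjp1 (-0.18) and Ocln (-0.15) did not pass. The count was sensitive to the model, with 2 members lower with no replicate block and 6 without animal 5. In the same libraries keratins Krt8 and Krt18 fell (log2 -0.64 and -0.60). Summed type I markers were lower in S_PI in 4 of 5 animals, and summed fibroblast markers higher in 5 of 5, and their part in these falls was not tested. Most of the fibroblast sum came from Sparc, Col1a1 and Vim (means of 11243, 6978 and 3020 CPM in S_PI). Col3a1 averaged 678 CPM there, but Col1a2, Pdgfra and Lum only 1.92, 4.19 and 4.09 CPM.

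Ion transport genes changed in both directions, 4 higher and 4 lower of 21 tested (38.1% called, against 30.5% of all genes tested). Without animal 3, 4 or 5 it was 2 that were higher, and without animal 4 it was 2 that were lower. Scnn1g (ENSRNOG00000017842), the gamma chain of the epithelial sodium channel (ENaC), which clears alveolar fluid, measured 2.29, 25, 13.4, 0 and 0 CPM in S_PI, against 186, 123, 34.8, 14.4 and 11.1 CPM in NS_PI. It was lower in 5 of 5 animals and listed at 0 in 2 S_PI libraries (log2 -3.17 ± 0.46, edgeR adjusted p = 4.92e-05). The alpha and beta subunits, Scnn1a (-0.75, adjusted p = 0.0884) and Scnn1b (-0.91, adjusted p = 0.199), did not pass. Sgk1, a kinase that keeps the channel at the membrane, and Nedd4l, the ligase that removes it, rose by 1.06 and 1.01, Sgk1 without a call when animal 4 or 5 was left out. The proton pump Atp12a, outside that list, averaged 4.88 ± 5.98 CPM in S_PI and 34.1 ± 21.4 CPM in NS_PI (SD, n = 5 each).

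Targets of the mechanosensitive factor YAP and the cytoskeletal MRTF-SRF targets did not rise as groups. Ankrd1 (ENSRNOG00000018598), a YAP target, measured 35, 92.7, 77, 156 and 207 CPM in S_PI, against 590.4, 419, 511, 1729.7 and 2048 CPM in NS_PI. It fell in every animal without overlap and was 8.95-fold lower in S_PI (log2 -3.16 ± 0.27, edgeR adjusted p = 1.22e-07). Cyr61 (log2 -1.62) and Nuak2 (-1.33) fell, Ctgf did not pass (-0.32, adjusted p = 0.248), and of 13 tested YAP-TEAD targets 3 rose (1 without animal 4 or 5) and 3 fell. Of 22 MRTF-SRF targets Zyx alone rose (0.65) and 5 fell: Cnn1 (-0.91), Myl9 (-0.89), Tagln (-0.79), Tpm1 (-0.76) and Vcl (-0.39). Without animal 4 or 5 it was 3 that fell, and Myl9 was not called without animal 3, 4 or 5. Of the MRTF-SRF list 27.3% were called, against 30.5% of all genes tested. The median of that list was 0.02 and turned to -0.08 with library size alone and to -0.06 with upper-quartile factors. The TEAD motif GGAATG lay in 5 of 11 YAP-TEAD promoters, among them Cyr61 and Nuak2, against 11.8% of all promoters and 9.77% of those of tested genes. The CArG box lay in 3 of 18 MRTF-SRF promoters, none of them of a called gene, against 1.50% and 1.20%. Skeletal actin, Acta1, averaged 20.7 ± 15.2 CPM in S_PI and 132 ± 148 CPM in NS_PI (SD, n = 5 each) and was lower in 5 of 5 animals.

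Signals of the TGF-beta family split: 8 of 23 tested members rose (5 without animal 3 or 4) and 4 fell. Bmp2 measured 96.3, 102, 113, 77.8 and 97.5 CPM in S_PI, against 18.6, 12.1, 11.1, 15.8 and 20.1 CPM in NS_PI, a 6.23-fold rise without overlap. Inhba, the subunit of activin A, rose 4.55-fold, and Inhbb, the subunit of activin B, fell 2.63-fold. Bmp4 (-0.95) and the BMP target Id1 (-1.22) fell, and Tgfb1 (0.61) and Id2 (0.69) rose. Regulators of apoptosis and growth arrest were lower in 10 of 33 tested and higher in 4, and without animal 3, 4 or 5 the lower count was 5 or 6. Bik (-1.97), the death receptor Fas (-1.47) and Cdkn1a (-0.56) fell, and Plk3 (1.21) and Mcl1 (0.58) rose. Bik was lower in 4 of 5 animals, with 4, 2, 4, 6 and 9 counts in S_PI libraries, near the floor of detection. It kept its call in 13 of 14 alternatives. Cebpd, a C/EBP factor induced by glucocorticoids, averaged 12.1 ± 4.26 CPM in S_PI and 55.5 ± 17.8 CPM in NS_PI (SD, n = 5 each), without overlap. In the list of glucocorticoid and FOXO targets and clock genes, 10 of 28 rose and 5 fell, and the clock genes Cry1 (1.32), Cry2 (1.02), Arntl (1.16) and Nr1d1 (1.50) were among the rises.

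Leukocyte markers rose in 9 of 16 tested and none fell (1 fell with library size alone and without animal 3), median log2 0.56. Cd53 (0.78), Mrc1 (0.79), Fcer1g (0.70), Cd68 (0.65) and Ctss (0.61) rose, while Ptprc (0.37, adjusted p = 0.165) and Csf1r (-0.04, adjusted p = 0.91) did not pass. The sum over 23 leukocyte markers was higher in S_PI in 4 of 5 animals, with Marco and Cd3e at 0 in all 10 libraries. This sum moved with the rise of the inflammatory mediators above, several of which leukocytes also express, and its part in those rises was not tested. With no replicate block no leukocyte marker passed. Of 10 tested fibroblast and smooth muscle markers, Col1a1 (0.64), Vim (0.81), Des (0.89) and Dcn (0.98) rose and Pdgfrb (-1.13) fell, the last without a call when animal 1, 2 or 4 was left out. Dcn was not called without animal 1, Des without animal 4 and Vim without animal 5. Endothelial markers were low, at 39.5 to 86.6 CPM summed in S_PI and 72.0 to 313 CPM in NS_PI, with Cdh5, Emcn and Cldn5 at 0.

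Across all genes, stretch with and without inhibitor was also set side by side. In S against NS 2075 genes passed (24.9%). Of the 2534 called with inhibitor, 1468 were also called without it in the same direction, which is 57.9% of the calls with inhibitor and 70.7% of those without, and none was called in opposite directions. A further 1066 genes were called only with inhibitor, of which 142 had an unadjusted interaction p below 0.05, so for most of these the difference between the 2 stretch effects was not shown. No gene passed the interaction test after adjustment with edgeR or with DESeq2, and 345 had an unadjusted p below 0.05, 173 of them positive. The interval of a single gene's difference was about 0.62 to each side at the median standard error, and narrower or wider for single genes.

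Among the 10 smallest interaction p-values were those of Desi2, Osbpl11, Kntc1, Kpnb1, Ppil3, Hspa4l, Arcn1, Slc7a11 and Btbd6. Desi2, a deSUMOylating peptidase family gene, measured 98, 155, 116, 135 and 117 CPM in S_PI, against 89.3, 82.9, 74.9, 86.9 and 55 CPM in NS_PI. It rose with inhibitor (log2 0.67) and stood at -0.20 in S against NS (difference 0.87, 95% interval 0.41 to 1.33, unadjusted p = 4.78e-04). Osbpl11, an oxysterol-binding protein relative, rose by 1.62 with inhibitor and stood at 0.41 without it. Btbd6 and the cyclophilin relative Ppil3 fell with inhibitor (-0.97 and -0.91) and stood at -0.02 and -0.02 without. The nuclear import factor Kpnb1 and the coatomer subunit Arcn1 rose with inhibitor (0.93 and 0.45), against -0.37 and -0.32 without, and the rise of Arcn1 was not called without animal 1, 4 or 5. Each of these had an adjusted interaction p of 0.984 or above.

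**Figure D5:**
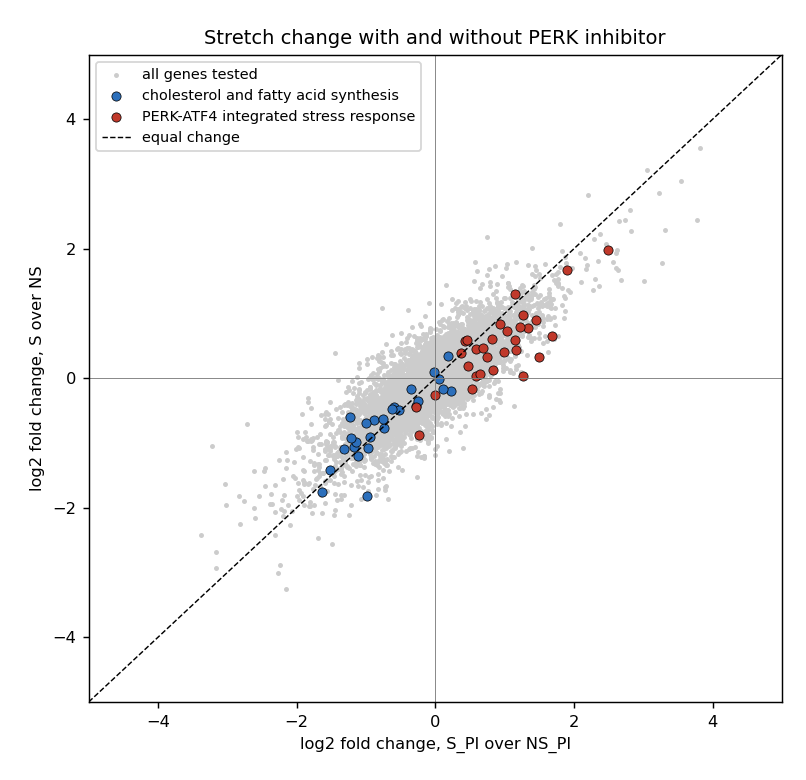
Log2 fold change of S_PI over NS_PI (horizontal) against that of S over NS (vertical) for 8320 genes (grey), with stress response genes in red and cholesterol and fatty acid synthesis genes in blue. The dashed line marks equal change, and 26 of 30 red points lie to its right.

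Of the 5 genes with the highest mean level in NS_PI, Clu alone passed the threshold. Fibronectin Fn1 stood at log2 0.36 (adjusted p = 0.222), Sparc at 0.17 (adjusted p = 0.401) and Ctgf and Hspa5 at the values above. Clu, the extracellular chaperone clusterin, fell (log2 -0.60) with adjusted p = 0.0454, lower in 4 of 5 animals, and its adjusted p was above 0.05 without animal 1, 4 or 5 (0.129 to 0.206).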

How the data were processed

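The study measured 3′ end RNA in 20 rat libraries. Per the submitters' processing notes, the authors used STAR and HTSeq with build rn6. Tool versions, annotation and strand setting were not given in the sources used here, so reads of overlapping and antisense genes cannot be told apart. They deposited raw counts for 17337 gene symbols, from which the 5 HTSeq summary entries were dropped. A second deposited table came from DESeq2 and holds, per the file headers, each gene's mean normalized signal, its log2 change and error, a test score and a p-value. Its header does not name the groups, so only its pairing of symbols with Ensembl IDs was used.

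Of 17337 genes, 8320 passed filterByExpr on the 4 groups. They were scaled by TMM and tested with the quasi-likelihood F test of edgeR, with terms for group and animal, in 1 fit to all 20 libraries (12 residual degrees of freedom), and p-values were adjusted by Benjamini-Hochberg over all of them. Genes with adjusted p below 0.05 were called, and n is 5 animals per group. Replicate numbers were read as animals, because the labels say that a sample pooled monolayers of 1 animal and that monolayers were randomized over the 4 conditions. The deviations of the S_PI and NS_PI libraries of 1 animal correlated at r = 0.34 to 0.53 across genes, and those of different animals at a median of -0.17. The S_PI and NS_PI libraries entered without any left out. The floor of 3 counts covers counting error only, and the labels name no molecular identifiers. Intervals of log2 changes come from the fit and include the spread between animals; they use the residual degrees of freedom alone, whereas the edgeR test also borrows degrees of freedom across genes, so the intervals are the wider of the pair. No sequencing batch is labelled.

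Named genes were the 10 largest rises and falls (at least 10 CPM, same direction in 5 of 5 animals), up to 4 called members of each of 33 lists, 12 fixed stress genes, the 10 smallest interaction p-values and the 5 most abundant genes in NS_PI; further list members are given to account for the lists. Some genes are counted in these lists and rules but not reported here. The comparison, lists and rules were chosen with earlier results of these data known. Promoters are RefSeq records of GRCr8, present for 6835 tested genes, and 7 motifs were searched in 10 pairs of motif and list, on both strands. Alternatives were other scaling factors, filters, DESeq2, other blocks, the compared groups alone and leaving out each animal. Only the edgeR test of S_PI against NS_PI was checked on simulated data, not the interaction, S against NS or DESeq2. Tests used edgeR 4.0.16 and DESeq2 1.42.0 in R 4.3.3, motifs were searched in Python 3.11.15, and figures drawn with matplotlib 3.10.9.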

Additional observations from a re-analysis of the deposited data

Results flagged for a closer look

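Among the 134 named genes, 12 had 1 animal whose log2 difference S_PI minus NS_PI lay apart from the other 4 by Dixon's gap test at its 95% level, which chance alone gives in about 1 of 20 genes. Animal 1 was the animal apart in 9 of them. It moved farther than the others for Tnfaip6 (5.10, others 2.13 to 2.52), Inhba (4.33, others 1.44 to 1.92), Mki67 (2.41, others 0.647 to 1.11) and Upk1b (1.04, others 0.271 to 0.441). It also fell farther for Cldn18 (-3.16, others -1.29 to -0.547), Psmb9 (-2.39, others -0.940 to -0.362) and Dram1 (-1.95, others -0.681 to -0.354). Animal 1 moved less, or not in the direction of the others, for Myl9 (-0.229, others -1.06 to -0.901) and Lgals3 (-0.0726, others 0.759 to 1.07).

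The other 3 genes differed in other animals. Cntf rose most in animal 5 (2.43, others 1.29 to 1.50), Gnl3 rose least in animal 4 (0.354, others 1.49 to 1.84), and Cd14 was lower in animal 2 (-0.424, others 0.669 to 1.11). Without animal 1, 2453 genes were called in S_PI against NS_PI, beside 2534 with it.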

How the results depend on the processing

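The fit with animal as a replicate block called 2534 genes in S_PI against NS_PI. With no replicate block it called 1229 (643 higher, 586 lower), and S against NS had 818 calls with no replicate block and 1048 when only S and NS were fitted with the replicate block, beside 2075. A replicate block for each animal and inhibitor state gave 2145, the compared groups alone 2160, DESeq2 2521. Leaving out 1 animal gave 1839 to 2453 genes called, 938 to 1240 higher and 901 to 1213 lower, and 1418 to 1784 in S against NS. The lowest count, 1839, came without animal 5. The interaction had 0 calls with edgeR and DESeq2 throughout. The depth difference ranged from -398802 to -173098 counts (exact p 0.125 to 0.375).

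For named genes, 1745 values under alternatives kept direction and call, 125 lost the call, 2 gained it and 1 changed sign: Xbp1 was -0.116 without animal 1, and between -0.116 and 0.293 over the animals left out. The cause was not tested. Of the list counts, 812 stayed within 1.5 times and 112 did not. No gene called in the fit reported changed sign in any alternative. Genes near the floor of 1.25 to 2.29 CPM, such as Fosb and Mmp10 in NS_PI and Ccl1 and Pik3ip1 in S_PI, are limited by depth.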

Other observations

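Of 34 autophagy and lysosome genes 6 rose and 1 fell (20.6% called, against 30.5% of all genes tested), median log2 0.18. The rises numbered 1 with library size alone, 0 without animal 4, 2 without animal 3 and 3 without animal 2 or 5. Without animal 3 none fell. Ctsz, a lysosomal protease, rose by log2 0.50 (edgeR adjusted p = 0.00996), the autophagy receptors Optn and Sqstm1 by 0.57 and 0.50, and Wipi1 fell (log2 -0.48). Without animal 4, Ctsz, Optn and Sqstm1 were not called. Among 11 genes of transitional alveolar epithelial cells, which appear between type II and type I states, Areg, Hbegf and Lgals3 rose and Krt8, Krt18 and Cdkn1a fell. Lgals3, galectin 3, averaged 4778 ± 996 CPM in S_PI and 2934 ± 792 CPM in NS_PI (SD, n = 5 each) and was not called without animal 2, 3, 4 or 5. Of 3 airway markers none passed (1 fell without animal 2 and with library size alone), with Scgb1a1 at log2 -0.68 (adjusted p = 0.0792). Of 4 mesothelial markers Upk1b rose (log2 0.51; no call without animal 1 or with library size alone), of 3 endothelial markers Esam fell (-1.28), and no red blood cell marker was tested.

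Of the largest falls named by rule, Rtp4 averaged 7.53 ± 1.85 CPM in S_PI and 40.01 ± 13.4 CPM in NS_PI, and Pik3ip1, an inhibitor of PI3 kinase, 3.42 ± 1.37 CPM in S_PI and 25.6 ± 20.3 CPM in NS_PI (SD, n = 5 each). Dcdc2 averaged 5.96 ± 3.63 CPM in S_PI and 29.3 ± 9.81 CPM in NS_PI, and RGD1563692 6.49 ± 2.12 CPM in S_PI and 32.3 ± 13.8 CPM in NS_PI. Among the largest rises, Penk, the precursor of enkephalin peptides, measured 83.1, 11, 12.2, 8.39 and 32.7 CPM in S_PI, against 6.98, 4.17, 1.58, 2.32 and 4.46 CPM in NS_PI, and was higher in 5 of 5 animals with the highest S_PI level in animal 1. Among FOXO targets, the muscle ubiquitin ligase Fbxo32 rose (log2 1.85, edgeR adjusted p = 0.00275) and Trim63, another such ligase, fell (-1.81, adjusted p = 7.18e-04). Fbxo32 was higher in 4 of 5 animals, with 9, 15, 3, 5 and 3 counts in NS_PI libraries. Trim63 had 4, 43, 35, 0 and 3 counts in S_PI libraries and kept its call in 13 of 14 alternatives.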
